A study of Mus musculus with 2 samples.

Results

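Genes with alternative promoters far apart were examined in open chromatin maps of newborn mouse thymus. The set holds the autosomal protein-coding genes whose most upstream and most downstream coding transcription start sites (TSSs) lie more than 10 kb apart in the mouse annotation (GENCODE M21 on mm10, also called GRCm38). It has 3629 of the 20722 autosomal protein-coding genes. Of the rest, 9445 genes have several coding TSSs that all lie within 10 kb, and 7648 have a single coding TSS. The open chromatin data are DNase-seq, in which the enzyme DNase I cuts accessible DNA, of thymus from healthy mice of strain B6NCrl at postnatal day 0, with males and females pooled. The 2 biological replicates form a single group. Their labels name 1 donor but separate biosamples, and an SD over them may hold technical as well as biological spread. Each replicate has its own list of peaks of 150 bp and its own list of wider regions called hotspots. No condition was compared, no test between groups was possible, and all values below are descriptions of these libraries.

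Many mammalian genes can start transcription from more than one promoter, and the choice can change the first exon, the untranslated leader, the start codon or the tissue in which the gene is active. In T cells, Lck, Runx1, Runx3 and Gata3 are well-known cases, with an upstream (distal) and a downstream (proximal) promoter that are used in different proportions as the cells mature. Promoters rich in CpG dinucleotides are often accessible in most tissues, and promoters poor in CpG are more often open in particular cell types.

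A TSS is called open in a replicate when a peak has its midpoint within 1000 bp of it, and open without further qualification when this holds in both replicates. The score is the number the authors deposited with each peak, a whole number from 1 to 150. The labels and the accompanying text leave its meaning unstated, so it was used to rank peaks within a list. Because it stops at 150, strong peaks differ little in it. The score of a TSS is that of its strongest peak. Replicate 1 had 154812 peaks with a median score of 46, and replicate 2 had 139702 peaks with a median score of 41. Without read totals, the depth behind each list is unknown. Both replicates had promoter peaks at the T cell genes Cd3e, Cd4, Cd8a, Rag1, Rag2, Ptcra and Lck, and neither had one at Foxn1 (thymic epithelium) or Hbb-bs (red cells). In whole tissue, an opening in fewer cells and a lesser opening in each cell cannot be told apart.

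The promoter pairs of 5 T cell genes show how unlike the start sites of 1 gene can be. Each sequence below is the 150 bases directly before a TSS of a complete transcript, read 5′ to 3′ on the gene's strand from the GRCm38 sequence, with CpG dinucleotides in capitals. All 10 lie on mm10 outside annotated coding sequence and untranslated regions. Lck, the tyrosine kinase next to the T cell receptor, lies on the minus strand of chromosome 4; its upstream stretch is chr4:129573642-129573791 and its downstream stretch chr4:129558392-129558541. Both TSSs were open, and the stretches hold 0 CpGs upstream and 2 downstream.
Lck upstream: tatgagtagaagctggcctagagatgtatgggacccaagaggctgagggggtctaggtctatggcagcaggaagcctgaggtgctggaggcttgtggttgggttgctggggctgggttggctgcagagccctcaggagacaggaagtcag
Lck downstream: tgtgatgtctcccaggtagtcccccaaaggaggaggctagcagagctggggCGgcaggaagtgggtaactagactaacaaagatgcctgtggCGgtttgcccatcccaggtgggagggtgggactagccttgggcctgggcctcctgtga
Runx1, a transcription factor of blood and T cell development, lies on the minus strand of chromosome 16; the stretches are chr16:92826150-92826299 upstream and chr16:92697329-92697478 downstream. The downstream stretch belongs to the complete transcript that starts 1833 bp before the outermost annotated TSS, which comes from an incomplete transcript. Both TSSs were open, with 0 CpGs in the upstream stretch and 12 in the downstream one.
Runx1 upstream: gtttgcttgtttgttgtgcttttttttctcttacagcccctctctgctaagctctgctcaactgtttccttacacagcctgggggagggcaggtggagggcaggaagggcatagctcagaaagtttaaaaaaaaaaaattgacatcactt
Runx1 downstream: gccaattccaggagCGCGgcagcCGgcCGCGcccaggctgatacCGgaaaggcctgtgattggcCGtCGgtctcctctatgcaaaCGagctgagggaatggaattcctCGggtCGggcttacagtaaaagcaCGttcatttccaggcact
Runx3, the related factor of the CD8 lineage, lies on the plus strand of chromosome 4; the stretches are chr4:135120502-135120651 upstream and chr4:135152346-135152495 downstream. Both TSSs were open, with 5 CpGs in the upstream stretch and 22 in the downstream one.
Runx3 upstream: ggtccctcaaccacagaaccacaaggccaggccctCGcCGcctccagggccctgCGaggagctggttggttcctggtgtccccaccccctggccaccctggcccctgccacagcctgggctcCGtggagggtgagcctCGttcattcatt
Runx3 downstream: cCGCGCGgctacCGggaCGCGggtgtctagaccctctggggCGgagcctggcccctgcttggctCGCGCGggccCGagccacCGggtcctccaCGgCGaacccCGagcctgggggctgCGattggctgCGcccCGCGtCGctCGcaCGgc
Gata3, a factor needed for T cell commitment, lies on the minus strand of chromosome 2; the stretches are chr2:9890035-9890184 upstream and chr2:9878601-9878750 downstream. Both TSSs were open, with 5 CpGs in the upstream stretch and 9 in the downstream one. The upstream peak lay 643 bp after the TSS in replicate 1 and 623 bp in replicate 2, outside the printed stretch.
Gata3 upstream: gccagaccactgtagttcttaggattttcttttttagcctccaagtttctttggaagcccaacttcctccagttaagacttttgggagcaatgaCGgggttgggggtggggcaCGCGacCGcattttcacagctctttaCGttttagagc
Gata3 downstream: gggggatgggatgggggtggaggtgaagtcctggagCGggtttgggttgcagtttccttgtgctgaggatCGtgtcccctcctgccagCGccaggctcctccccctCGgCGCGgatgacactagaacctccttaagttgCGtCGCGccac
Notch1, the receptor that directs blood progenitors to the T cell fate, lies on the minus strand of chromosome 2; the stretches are chr2:26516664-26516813 upstream and chr2:26503823-26503972 downstream. Here the upstream TSS, with 1 CpG in the stretch, had no peak in either replicate, and the downstream TSS, with 11 CpGs, was open.
Notch1 upstream: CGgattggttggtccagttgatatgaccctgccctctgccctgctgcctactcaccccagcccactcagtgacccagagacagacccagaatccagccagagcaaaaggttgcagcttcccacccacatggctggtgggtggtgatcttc
Notch1 downstream: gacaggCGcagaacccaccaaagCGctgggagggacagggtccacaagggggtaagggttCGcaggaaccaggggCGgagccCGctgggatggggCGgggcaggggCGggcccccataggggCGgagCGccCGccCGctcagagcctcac

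Open at the upstream TSS and closed at the downstream one was the most frequent state. Of the 3629 genes, 1896 (52.2%) were open at the upstream TSS only, 505 (13.9%) at both, 192 (5.29%) at the downstream TSS only and 688 (19%) at neither. The remaining 348 genes (9.59%) fell into different classes in the replicates. Genes whose outermost TSSs lie 2 to 10 kb apart, 2792 in all, were open at both in the same share, 13.9%, at the upstream TSS only in 30%, at the downstream TSS only in 6.23% and at neither in 40.8%, and 9.06% differed between replicates.

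Taken TSS by TSS, the upstream TSS was open in 2539 genes (70%) and the downstream TSS in 728 (20.1%), against 59% of all 52063 autosomal coding TSSs. In the genes with TSSs 2 to 10 kb apart, the upstream TSS was open in 47.4% and the downstream TSS in 21.5%. In single replicates the upstream TSS was open in 2637 genes in replicate 1 and 2605 in replicate 2, a mean of 72.2% ± 0.624 (SD, n = 2). The downstream TSS was open in 847 and 807 genes, a mean of 22.8% ± 0.779 (SD, n = 2). The gap between the TSSs was many times the spread between replicates. At least 1 coding TSS, inner ones included, was open in 2940 genes of the set (81%), against 67.2% of genes whose TSSs lie within 10 kb, 51.2% of genes with a single TSS and 63.7% of all autosomal coding genes.

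The downstream share was above that of points in the same genes that are not outermost TSSs. The midpoint between the TSSs had a peak in both replicates in 9.86% of genes. Points 5 kb before and after the upstream TSS had one in 12.5% and 11.8%, and points 5 kb before and after the downstream TSS in 11.7% and 11.3%. In single replicates the midpoint share was 12.6% ± 1.09 (SD, n = 2), as the plot of shares by position shows.

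**Figure D1:**
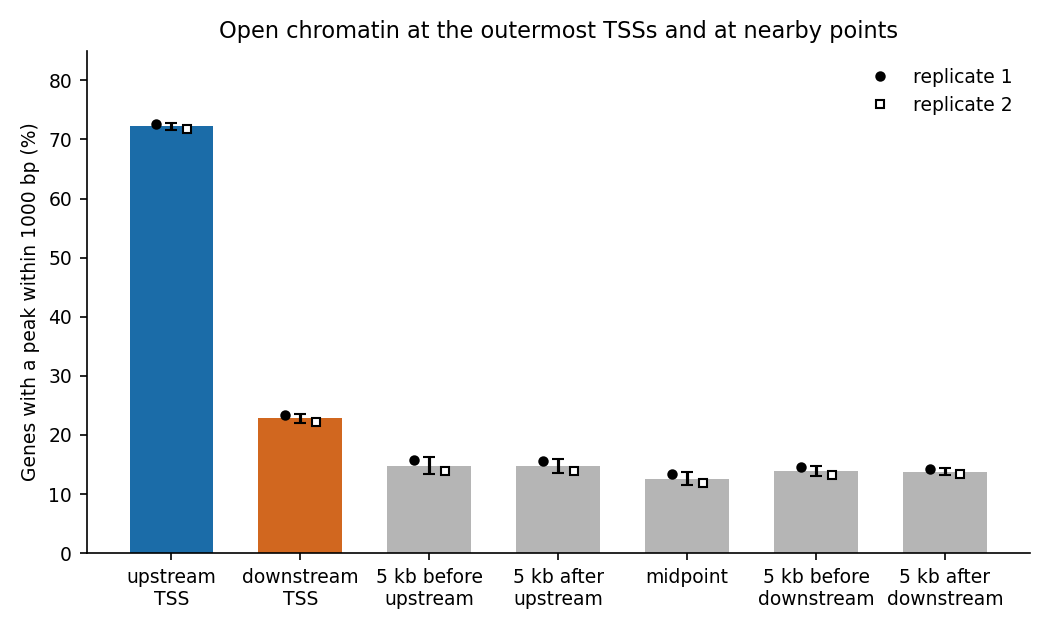
Percent of the 3629 genes with a peak within 1000 bp of the upstream TSS, the downstream TSS, and 5 other points of the same genes. Bars are means of the 2 replicates with the SD, circles are replicate 1 and squares replicate 2; the upstream TSS stands at 72.2%, the downstream TSS at 22.8% and the other points between 12.6% and 14.8%.

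Part of the downstream TSSs come from transcripts whose 5′ end the annotation tags as incomplete, so that the true start may lie elsewhere. This was so for 1734 downstream TSSs (47.8%) and for 16 upstream TSSs. Downstream TSSs of incomplete transcripts alone were open in 9.92%, close to the 9.86% at the midpoint, and the 1895 downstream TSSs of a complete transcript were open in 29.3%. Upstream TSSs of a complete transcript were open in 70.1%. Of the 1896 upstream-only genes, 1159 (61.1%) have a downstream TSS from incomplete transcripts alone. Without incomplete transcripts the rule finds 2309 genes, of which 39.6% were upstream only and 20.1% open at both, so upstream only is then the most frequent class but not the majority. Another gene with a coding TSS within 2000 bp, as at bidirectional promoters, stood beside 528 upstream TSSs, of which 85.8% were open, and beside 45 downstream TSSs, of which 66.7% were open. Upstream TSSs with no such neighbour were open in 67.3% and downstream TSSs with none in 19.5%. At a shared promoter the peak cannot be given to 1 of the genes.

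The replicates differed mainly at weak peaks. Among the 348 genes with differing classes, 86 were open at both TSSs in replicate 1 and upstream only in replicate 2, and 52 the other way round. A further 69 were upstream only in replicate 1 and neither in replicate 2, and 50 the other way round. Upstream peaks found in 1 replicate alone had median scores of 30 in replicate 1 and 22 in replicate 2, against 113 and 121 for upstream TSSs open in both. Downstream peaks found in 1 replicate alone had medians of 29 and 23, against 79 and 74. Where a TSS was open in both replicates, the scores differed by a median of 7 at the upstream TSS and 8 at the downstream TSS. Open upstream TSSs had their strongest peak within 150 bp in 65.7% in replicate 1 and 67.2% in replicate 2, and open downstream TSSs in 42.3% and 42.7%. At most open downstream TSSs the strongest peak thus lay farther than 150 bp away.

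CpG content went with openness at either end. The upstream TSS had a median of 58 CpGs within 500 bp on either side and the downstream TSS a median of 13. Upstream TSSs with 0 to 9 CpGs were open in 12.3%, those with 10 to 19 in 27.4%, with 20 to 39 in 59.3%, with 40 to 59 in 80.4% and with 60 or more in 92.2%. Downstream TSSs in the same ranges were open in 6.62%, 14.6%, 26.1%, 74.2% and 87.2%. At either end the share was higher in each higher range, and within each range it was lower at the downstream TSS.

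A TSS with at least 40 CpGs within 500 bp is called CpG-rich below. By this measure 2199 genes were CpG-rich at the upstream TSS alone, 154 at both, 157 at the downstream TSS alone and 1119 at neither. Of the 154 genes rich at both, 70.8% were open at both. Of the 2199 rich upstream alone, 71.7% were open upstream only and 13.1% at both. Of the 157 rich downstream alone, 50.3% were open downstream only and 23.6% at both. Of the 1119 rich at neither, 47.6% were open at neither, 27.4% upstream only, 7.95% downstream only and 6.43% at both. The share open at both among genes rich at both was 53.7% with a minimum of 30 CpGs and 73.5% with 50.

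**Figure D2:**
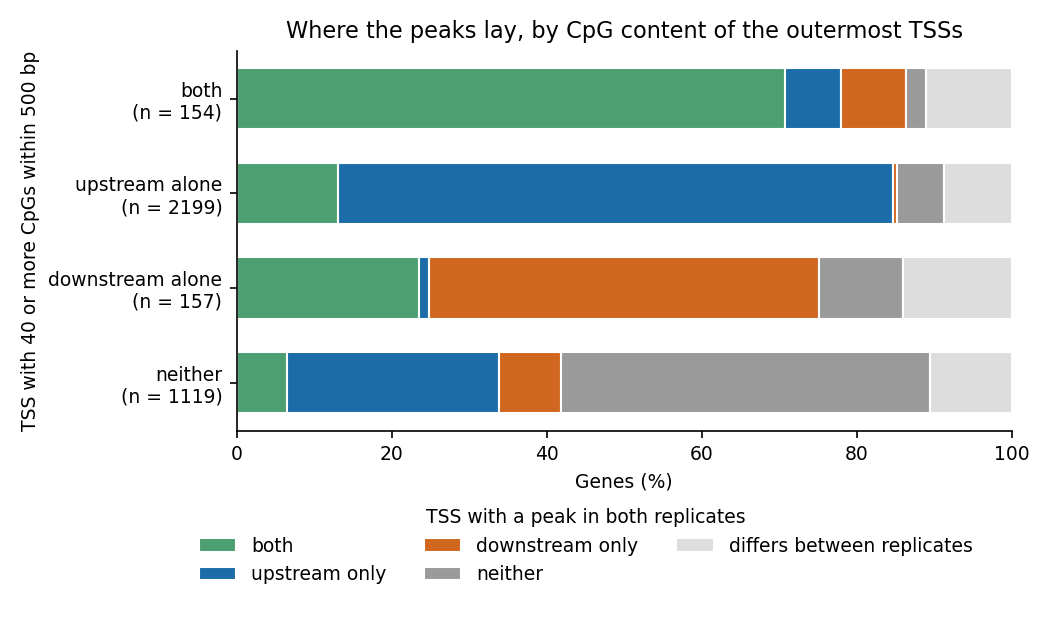
Share of genes (percent, horizontal axis) open at both TSSs, upstream only, downstream only, at neither or differing between replicates, for the 4 combinations of CpG-rich TSSs (rows, with the number of genes). Genes CpG-rich at both ends were open at both in 70.8%, and each single rich end was mostly the open one.

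Openness and CpG content parted in some genes, here named after their values were seen. Of the 505 genes open at both TSSs, 72 were CpG-rich at neither. Ranked by the mean score of the weaker TSS, Lck led these 72, with 19 CpGs upstream and 18 downstream. It was followed by Endou, with scores of 122 and 128 upstream and 115 and 111 downstream in replicates 1 and 2. Sla, an adaptor that dampens T cell receptor signalling, was also among the first 5, with 93 and 101 upstream and 118 and 112 downstream at only 5 and 6 CpGs. In the opposite direction, 4 genes were CpG-rich at both and open at neither: Fgf12, Gm3448, Zic4 and Sall4, the last a factor of pluripotent cells. Rora, a nuclear receptor, was rich at both TSSs, which lie 636 kb apart, and was open at the downstream one only, with scores of 112 and 117. The CpG count is taken at the outermost base and can miss a rich promoter next to it: Fyn has 14 CpGs at its outermost TSS and 90 at the next, which lies within reach of the same peak.

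Many T cell genes of the set were open at both TSSs, by a count that depends on the window. A list of 26 T lineage factors has 11 members in the set, of which 7 were open at both TSSs, 3 upstream only and 1, Notch1, downstream only. A list of 30 genes of the T cell receptor and its signalling has 9, of which 5 were open at both and 4 upstream only. Together 12 of 20 (60%) were open at both, against 13.9% of the whole set, and none was closed at both. With a window of 500 bp, 7 of the 20 (35%) were open at both, against 10.2% of the whole set: Elf1, Foxp1, Lck, Nfatc2, Runx1, Runx3 and Tcf12. In Foxp1 the strongest upstream peak lies more than 500 bp before the TSS in both replicates, and a weaker peak lies within 500 bp. In Gata3 the upstream peak lies 643 bp after the TSS in replicate 1 and 623 bp in replicate 2, and in Satb1, Cd5, Plcg1 and Ptpn6 the downstream peak lies 723 to 853 bp from the TSS. Of these 12, 8 have a complete transcript at the downstream TSS; in Cd5, Plcg1, Ptpn6 and Runx1 the outermost downstream TSS comes from an incomplete transcript. No test stands behind this contrast, since genes are not replicates and the lists were drawn up with earlier results of these data known.

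Lck scored 111 and 123 at the upstream TSS and 131 and 129 at the downstream TSS in replicates 1 and 2. The 2 promoters are 15.3 kb apart, and the downstream one, known as the proximal promoter of immature thymocytes, was higher in both replicates. Gata3 followed the same order, with 99 and 95 upstream and 116 and 114 downstream, 11.4 kb apart. Nfatc2, a calcium-driven factor of activated T cells, scored 56 and 45 upstream and 103 and 101 downstream, with CpG-rich TSSs at both ends. Foxp1, which keeps naive T cells quiescent, scored 71 and 75 upstream and 98 and 97 downstream across 493 kb. Ptpn6, the phosphatase SHP-1 that restrains receptor signalling, scored 85 and 70 upstream and 95 and 95 downstream. In these 5 genes the downstream score was above the upstream score in both replicates.

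The other 7 had the higher score upstream in both replicates. Runx3 had nearly level scores, 120 and 118 upstream against 104 and 114 downstream, 31.8 kb apart. Runx1 scored 114 and 118 upstream and 62 and 69 at the outermost downstream TSS, 131 kb away. That TSS belongs to the incomplete transcript, and the complete proximal transcript 1833 bp before it scored 102 and 112. Elf1, an ETS family factor, scored 116 and 128 upstream and 91 and 89 downstream. Another gene has a coding TSS within 2000 bp of the upstream TSS of Elf1, so that peak cannot be given to 1 gene. Satb1, the chromatin organiser of thymocytes, scored 114 and 132 upstream and 60 and 53 downstream, and 3 of its 4 inner TSSs lying more than 2 kb from both were open as well, the strongest at 100 and 108. Tcf12, the E protein HEB, scored 116 and 128 upstream and 43 and 53 downstream. Cd5, a surface receptor that tunes T cell receptor signals, scored 103 and 111 upstream and 46 and 54 downstream. Plcg1, a phospholipase downstream of the receptor, scored 125 and 129 upstream and 69 and 51 downstream.

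Among the T cell genes open at 1 end, Notch1 alone was downstream only, with 133 and 142 at the downstream TSS 12.8 kb from a closed upstream one. The kinase gene Fyn was upstream only, with 139 and 141, as were the ubiquitin ligase gene Cblb with 129 and 135 and the E protein gene Tcf3 with 130 and 137. Bach2, a repressor of effector genes, scored 126 and 127 upstream, Notch3 100 and 109, the kinase gene Prkcq 87 and 86, and Csk, the kinase that holds Lck in check, 84 and 70. Csk had its strongest promoter between the outer ones: all 4 of its inner TSSs were open, the best at 107 and 117. The plot of scores by gene shows all 20.

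**Figure D3:**
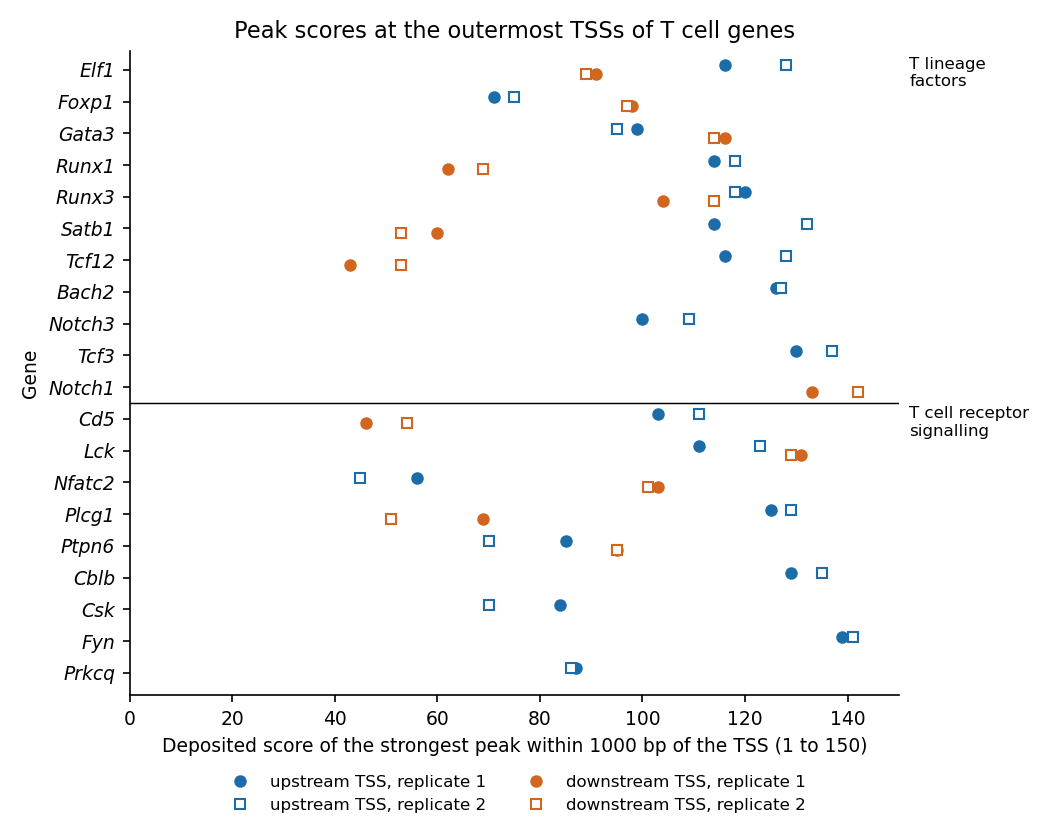
Deposited peak score (horizontal axis, 1 to 150) at the upstream TSS (blue) and downstream TSS (orange) of the 11 T lineage factors and 9 receptor signalling genes of the set, with replicate 1 filled and replicate 2 open; a missing symbol is a TSS with no peak. Orange lies right of blue in Foxp1, Gata3, Lck, Nfatc2 and Ptpn6, and Notch1 has orange symbols only.

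Across all 505 genes open at both TSSs, the upstream peak was usually the stronger. The median score was 108 in replicate 1 and 116 in replicate 2 at the upstream TSS, against 79 and 74 at the downstream TSS. Upstream minus downstream had a median of 19 in replicate 1 and 28 in replicate 2, a mean of 23.5 ± 6.36 (SD, n = 2). The upstream score was higher in both replicates in 325 genes (64.4%) and the downstream score in 130 (25.7%); in 50 genes the sign differed or the scores were equal. Within genes the scores of the ends were unrelated in rank, with a Spearman correlation across the 505 genes of -0.0539 in replicate 1 and -0.0713 in replicate 2. The difference itself kept its rank between replicates, with a Spearman correlation of 0.957. It went with the difference in CpG count with a Spearman correlation of 0.340 in replicate 1 and 0.425 in replicate 2. These correlations are across genes, which are not replicates; the value of 0.957 sets the replicates against each other, and the others lie within 1 library, whose peaks share its depth. Genes with the higher downstream score in both replicates had median counts of 54.5 CpGs upstream and 50 downstream, and those with the higher upstream score 71 and 17.

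The widest gaps in score showed each end dominating. Ppp2r3d, a phosphatase regulatory subunit, scored 20 and 20 upstream and 131 and 144 downstream, and its upstream TSS comes from an incomplete transcript. Ndel1, a dynein regulator, scored 48 and 39 upstream and 144 and 142 downstream. Tbc1d1, Zbtb12 and Arhgef3 completed the first 5 in that direction, with scores of 33 to 49 upstream and 120 to 137 downstream over both replicates. In the other direction Mpc1, a carrier of pyruvate into mitochondria, scored 142 and 144 upstream and 31 and 30 downstream. Nup210, a nuclear pore protein, scored 134 and 136 upstream and 22 and 27 downstream, and Lss, Clk3 and Prkar1b followed. In Nup210, Lss and Clk3 the downstream TSS comes from incomplete transcripts. The strongest pairs, ranked by the weaker TSS, were Pnkd with 137 and 140 upstream and 131 and 146 downstream, and Ankrd24, with 129 and 141 upstream and 130 and 138 downstream. Fntb, a subunit of farnesyltransferase, had 131 and 136 upstream and 132 and 133 downstream, and H2-DMa, Fbxo46, Fam214a, Phax and Aldh7a1 completed the first 8. Phax and Aldh7a1 overlap on opposite strands and share both peaks, with upstream and downstream exchanged, so they are 1 pair of peaks counted for 2 genes. In 7 of the 8, Fam214a aside, a coding TSS of another gene lies within 2000 bp of an end.

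**Figure D4:**
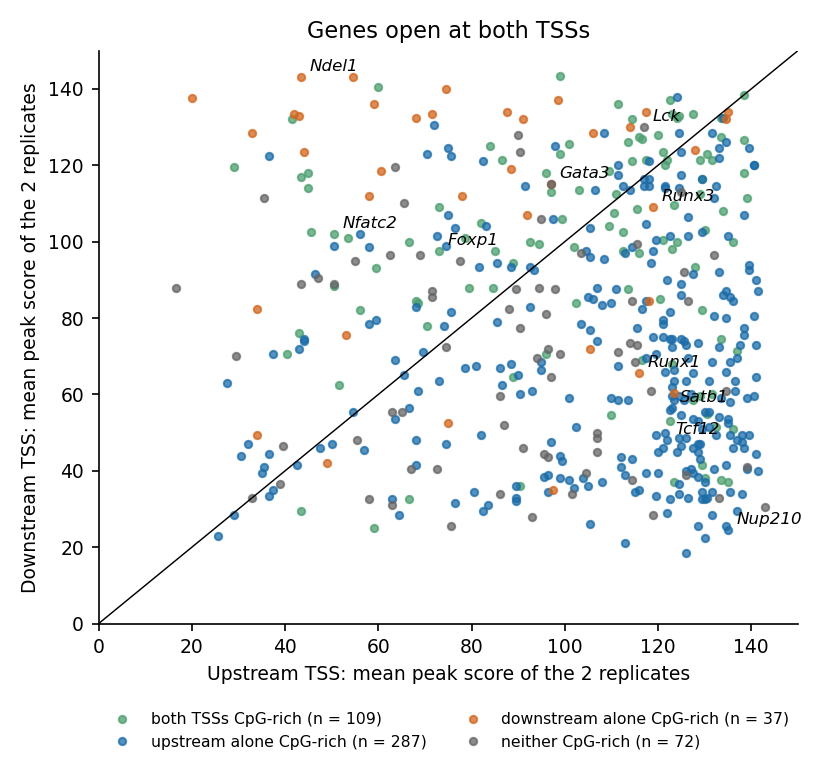
Mean peak score of the 2 replicates at the upstream TSS (horizontal axis) and the downstream TSS (vertical axis) for the 505 genes open at both, coloured by which TSS is CpG-rich. The line marks equal scores; more genes lie below it, as the medians of 108 and 116 upstream against 79 and 74 downstream give, and genes CpG-rich downstream alone lie mostly above it.

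Genes open at 1 end only reached scores as high as those open at both. The 8 strongest upstream-only genes were Shoc2, Nptn, Rbm39, Ankrd11, Cnot3, Glcci1, Ralgapa2 and Acin1, with upstream scores of 139 to 148. In Shoc2, Rbm39, Ankrd11, Cnot3, Ralgapa2 and Acin1 the downstream TSS comes from incomplete transcripts. In Shoc2 and Acin1 a coding TSS of another gene lies within 2000 bp of the upstream TSS. Shoc2, a scaffold of the RAS pathway, scored 143 and 147, and Ankrd11, a chromatin co-regulator, 140 and 147. The 8 strongest downstream-only genes were Ssc4d, Inip, Slc39a10, Usp37, Notch1, Scp2, Trmt13 and Xrcc6, with downstream scores of 133 to 144. Usp37 and Trmt13 have such a neighbour at the downstream TSS, which in Trmt13 comes from an incomplete transcript. Slc39a10, a zinc importer, scored 134 and 144, and Xrcc6, the Ku70 subunit of DNA end joining, 135 and 134. Xrcc6 had only 12 CpGs at that TSS, and all 4 of its inner TSSs were open, the best at 131 and 141.

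Of 39 genes with alternative promoters known from textbooks, 34 are in the set. They were open at both in 8, upstream only in 8, downstream only in 3, at neither in 9 and differed between replicates in 6, beside 13.9%, 52.2%, 5.29%, 19% and 9.59% of the whole set in the same order. Beside Lck, Runx1, Runx3 and Tcf12, the genes open at both were Abl1, Cdkn2a, Gnas and Nr3c1. The kinase gene Abl1 scored 127 and 131 upstream and 115 and 110 downstream, 71.6 kb apart. Cdkn2a, which makes the tumour suppressor Arf from its upstream first exon and Ink4a from its downstream one, scored 67 and 59 upstream and 42 and 23 downstream. Gnas, an imprinted gene for a G protein subunit, scored 50 and 51 upstream and 79 and 98 downstream. Nr3c1, the glucocorticoid receptor, scored 106 and 103 upstream and 45 and 34 downstream, and all 6 of its inner TSSs were open, the best at 131 and 138.

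Among textbook genes open at 1 end, Mitf, a melanocyte factor with many first exons, scored 123 and 121 at its most upstream TSS. Mbp, whose upstream promoter makes the Golli transcripts and whose downstream promoter makes myelin basic protein, scored 119 and 118 upstream and had no downstream peak. Ppargc1a, a regulator of mitochondrial genes, was downstream only, with 43 and 25. Runx2, the bone factor of the Runx family, had a downstream peak of 65 and 42 in both replicates and an upstream peak of 23 in replicate 2 alone. Trp63, whose promoters make the TA and ΔN forms in epithelia, had no peak at either TSS and 0 peaks in the 118 kb between them. Bdnf and Hnf4a were also open at neither and at none of their inner TSSs.

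Genes open at neither outer TSS could still be open inside. Of the 688, 295 have inner coding TSSs more than 2 kb from both ends, and in 116 of these (39.3%) an inner TSS was open. Of all members with such inner TSSs, 588 of 1528 had an open one, with 51.0% among genes open at both and 33.8% among genes open upstream only, so the share in the 688 is near that of the set. Pde4d, a cAMP phosphodiesterase with TSSs over 1281 kb, had 6 of 10 inner TSSs open, the best at 133 and 134. Tcf4, an E protein, had 20 of 38 open, the best at 119 and 124, and Pax5, the B cell factor, 1 of 2 open at 117 and 113. Pde4b reached 106 and 106, the calcium channel gene Cacna1c 104 and 87, and Mef2c 57 and 49. With TSSs near the ends included, 127 of the 688 had an open coding TSS somewhere.

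Genes marking other tissues are given as counts, beside 13.9% open at both, 52.2% upstream only, 5.29% downstream only and 19% at neither in the whole set. Of 23 neuronal genes, 18 are in the set, of which 1 was open at both, 2 upstream only, 3 downstream only and 8 at neither, and 4 differed between replicates. Rbfox1 and Ntm had no peak at either TSS, nor at any inner TSS. Opcml, which has only its 2 outer TSSs, had no peak at either. Camk2a was open at both, with 67 and 67 upstream and 37 and 44 downstream. Upstream only were Nrxn2, with 108 and 112, and Ank3, with 39 and 26. Downstream only were Ntrk3 with 80 and 75, Rbfox3 with 60 and 63 and Nrxn3 with 37 and 33. The neuronal genes had a median distance of 769 kb between the TSSs, against 33.3 kb in the whole set. Of 7 striated muscle genes, 1 was open at both, 2 upstream only and 3 at neither, and 1 differed. The upstream-only genes were Actn2, with 101 and 110, and Ryr2, with 100 and 88. The gene open at both, Neb, a giant protein of the thin filament, scored 118 and 112 upstream and 66 and 71 downstream. Of 4 thymic epithelial genes, Grhl2 was open at both with 33 and 22 upstream and 72 and 54 downstream, Ehf and Esrp1 were upstream only and Trp63 was closed. The strongest upstream peak of Grhl2 lay 725 bp before the TSS in replicate 1 and 85 bp before it in replicate 2. Its downstream TSS comes from an incomplete transcript, and the peak lay 854 bp after it. Of 3 endothelial genes, Eng was upstream only with 80 and 82. Egfl7 was closed at both outer TSSs but had 3 of 6 inner TSSs open, the best at 80 and 73. Pecam1 was open upstream in both replicates with 113 and 110, and had a downstream peak of 29 in replicate 1 alone. Of the single members of 4 further lists, Col3a1 (mesenchyme) and Pax5 (B cells) were closed at both ends. Spi1 (myeloid cells) was open upstream with 65 and 91 and Erg (early progenitors) with 78 and 72, each with a downstream peak in replicate 2 alone, of 27 in Spi1 and 42 in Erg. Both erythroid members, Ank1 and Epb41, were upstream only, with 30 and 24 in Ank1 and 115 and 130 in Epb41. In Pecam1 and Epb41 a coding TSS of another gene lies within 2000 bp of the upstream TSS, so that peak cannot be given to 1 gene.

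In 4 of the 7 gene families described here, upstream only was the most frequent class. Chromatin regulators, 38 in the set, were upstream only in 25, at both in 8, at neither in 3 and downstream only in none; the histone deacetylase gene Hdac4 scored 140 and 145 upstream and Kmt2c, a histone methyltransferase, 101 and 122. Tyrosine phosphatases were upstream only in 12 of 18, and zinc finger proteins in 42 of 76. Solute carriers, 71 in the set, were upstream only in 28, at neither in 18 and at both in 12. Phosphodiesterases were open at both in 6 of 17 (35.3%) and upstream only in 3; Pde10a scored 60 and 52 upstream and 99 and 105 downstream across 399 kb. Potassium channels were open at neither in 11 of 22, among them Kcnma1 and Kcnmb2. Collagens were open at both in none of 16 and at neither in 7. The family counts stand beside 13.9% open at both, 52.2% upstream only and 19% neither in the whole set, and were not tested.

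The share open upstream varied more with the distance between the TSSs than the share open downstream. The upstream TSS was open in 41.9% of genes with TSSs 2 to 5 kb apart and 55.2% at 5 to 10 kb, both outside the set. Within it the share was 67.6% at 10 to 20 kb, 73.7% at 20 to 50 kb, 74.3% at 50 to 100 kb, 70.9% at 100 to 200 kb, 57.6% at 200 to 500 kb and 36.4% over 500 kb. The downstream share was 21.02% and 22.2% in the bins outside the set, and 22.1%, 19.2%, 20.8%, 18.7%, 16.7% and 14.3% within it. The share open at both stayed between 11.4% and 15.2% up to 500 kb and was 2.60% over 500 kb, in 2 of 77 genes. These were Zfhx3, with 40 and 28 upstream and 77 and 88 downstream 772 kb apart, and Mecom, with 36 and 35 upstream and 45 and 37 downstream 512 kb apart. In Mecom the downstream TSS comes from an incomplete transcript. The median CpG count at the upstream TSS was 13 and 29 in the bins outside the set, and 51, 58, 69, 66, 62 and 46 in the bins within it. It did not follow the open share throughout: the bin of 200 to 500 kb had more CpGs than that of 20 to 50 kb and a lower open share. The part of CpG content in these shares was not tested.

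**Figure D5:**
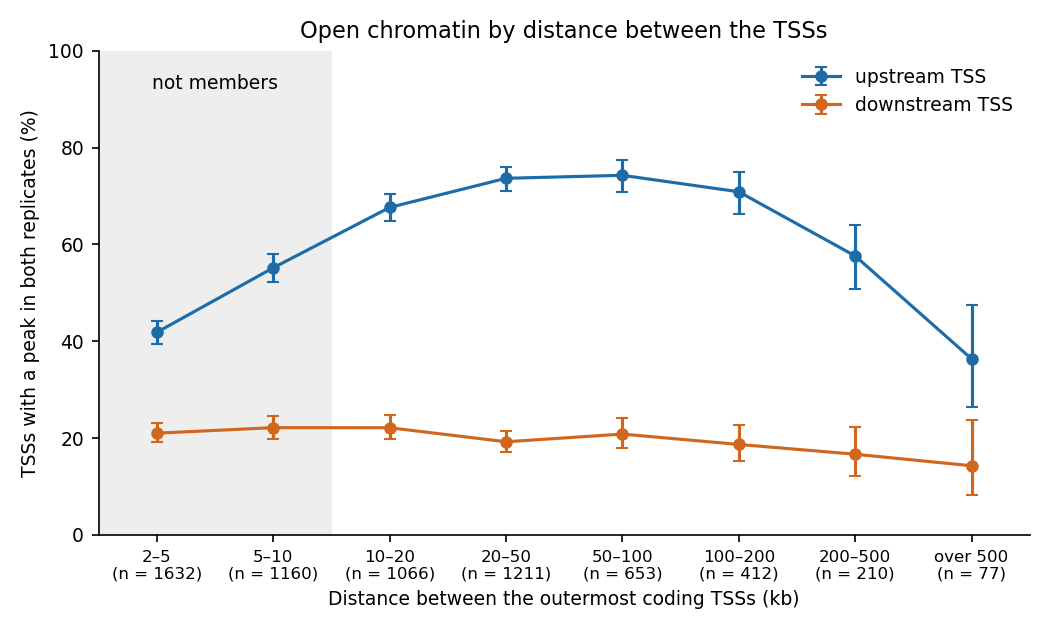
Percent of upstream (blue) and downstream (orange) TSSs open in both replicates (vertical axis) by distance between the outermost TSSs (horizontal axis, bins in kb with the number of genes); the grey field holds genes outside the set. Bars are 95% Wilson intervals over genes; the upstream share reaches 74.3% at 50 to 100 kb and is 36.4% over 500 kb, while the downstream share lies between 14.3% and 22.2%.

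The most distant TSSs in the set belong to Fgfr2, a growth factor receptor, 2861 kb apart and open upstream only with 78 and 81. Another gene has a coding TSS within 2000 bp of that upstream TSS, and the downstream TSS comes from incomplete transcripts. All 3 inner TSSs of Fgfr2 were open, the best at 47 and 43. Macrod2 spans 1781 kb and was upstream only with 133 and 140, and Lrp1b spans 2026 kb and was open at neither. Cntnap2, over 2185 kb, was open downstream with 97 and 94 and had an upstream peak of 44 in replicate 1 alone. At the limit of 10 kb, Slc38a3 at 10.002 kb was open at neither, Zfp458 at 10.002 kb downstream only with 111 and 99, and Srek1 at 10.026 kb upstream only with 116 and 128. Just under it, Fpgs at 9.96 kb was downstream only with 135 and 137, and Vmn1r85 at 9.958 kb and Zfpm2 at 9.955 kb were open at neither.

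The stretch between the TSSs held more peaks where the ends were open. Per 100 kb, genes open at both had a median of 14.2 peaks between the TSSs in replicate 1 and 12.6 in replicate 2, upstream-only genes 7.91 and 6.82, downstream-only genes 8.97 and 8.30, and genes open at neither 1.25 and 0.677. All autosomes together had 6.13 peaks per 100 kb in replicate 1 and 5.53 in replicate 2. Runx1 had 43 and 44 peaks between its TSSs, Foxp1 92 and 85, and Ptprd, a neuronal phosphatase open at neither end, 0 and 0. Hotspots told the ends apart in width: a hotspot lay over the TSS base in both replicates at 87.6% of open upstream TSSs and at 55.4% of open downstream TSSs. Its median width was 1052.5 bp in replicate 1 and 1386 bp in replicate 2 upstream, against 672 and 886 bp downstream. No TSS without a peak in either replicate lay under a hotspot in both.

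In 1884 genes the start codon could be compared between complete coding sequences of the outermost TSSs, and it differed in 1077 (57.2%). It differed in 209 of 363 genes open at both, 446 of 736 open upstream only, 97 of 163 open downstream only and 206 of 423 open at neither.

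Short motifs were searched on both strands in the 300 bases from 250 before to 50 after each TSS, each motif on its own, so that matches may overlap. The GC box GGGCGG was found at 66.6% of open and 20.8% of closed upstream TSSs, at 34.3% of open and 6.66% of closed downstream TSSs, and at 43.5% of all 52065 coding promoters. The TATA box letters TATAAA were found at 5.40% of open and 13.8% of closed upstream TSSs and at 9.75% of open and 18.0% of closed downstream TSSs, against 11.3% of all. The ETS core GGAAGT was found at 24.0% of open and 19.9% of closed upstream TSSs and at 25.5% of open and 18.0% of closed downstream TSSs, against 24.1% of all. The RUNX core TGTGGT was found at 10.7% of open and 16.1% of closed upstream TSSs and at 15.9% of open and 20.5% of closed downstream TSSs, against 14.99% of all. The E-box CAGCTG was found at 14.3% of open and 19.01% of closed upstream TSSs and at 21.4% of open and 17.9% of closed downstream TSSs, against 16.05% of all. CCAAT, in 35.6% of all promoters, was found at 36.0% of open and 38.7% of closed upstream TSSs and at 25% of open and 33.9% of closed downstream TSSs. The AP-1 motif TGACTCA, in 4.26% of all, was found at 2.56% of open and 5.94% of closed upstream TSSs and at 4.95% of open and 6.33% of closed downstream TSSs.

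In the printed stretches, counting from 1 at the 5′ end, the Lck upstream sequence has a RUNX core at base 93 and an ETS core at base 142, and the Lck downstream sequence a GC box at base 49 and an ETS core at base 57. The Runx1 downstream sequence has a CCAAT box at base 2 and another on the reverse strand at base 59. The Runx3 upstream sequence has RUNX cores on the reverse strand at bases 10 and 18. The Runx3 downstream sequence has a GC box at base 39 and a CCAAT box on the reverse strand at base 121. The Gata3 upstream sequence has an ETS core on the reverse strand at base 62. The Notch1 downstream sequence has 5 GC boxes, and the closed Notch1 upstream sequence has none and a CCAAT box on the reverse strand at base 4. A match is a match of letters, not a bound site.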

How the data were processed

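DNase-seq peaks and hotspots of 2 replicates were used as the authors deposited them on mm10, called per replicate and not on pooled reads (per the accompanying text). The deposited score of a peak has no stated unit. Hotspots carry a deposited −log10 q-value, capped at 100, which ranks them and was not compared between replicates. The sources used here give no aligner, caller, threshold or number of reads; depth is unknown, and more or fewer reads would change which weak peaks were called.

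Coding TSSs came from GENCODE M21, and sequence from GRCm38. CpGs were counted within 500 bp of a TSS. Peaks were assigned by midpoint. The steps recovered the classes planted in simulated data, which checks the code alone. Those data held a single peak per TSS and the same class in both replicates. Disagreement between replicates and promoters shared between genes were not simulated. Intervals are Wilson and cover counting over genes only. Named genes are members of the lists, the 8 highest scores per class, the 5 largest score differences each way, the 5 widest genes open at both, the 3 widest per class, the 3 nearest the 10 kb limit on each side, and up to 4 of each family by distance; a few of these are not reported here. Members and lists were chosen with earlier results of these data known; the CpG minimum of 40, the genes named by CpG content and the removal of incomplete and near TSSs together were chosen after seeing the data. Alternatives changed the window, peak strength, distance, transcripts, neighbours and replicates. Software: pysam 0.24.0, pandas 2.3.3, numpy 2.4.6, scipy 1.17.1 and matplotlib 3.10.9 under Python 3.11.15.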

Additional observations from a re-analysis of the deposited data

How the results depend on the processing

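Of 89 recomputed values, 64 stayed within 1.5 times the reported count, or within 1 SD between replicates (6.36) for the score difference, and 25 moved. Counts were compared here, not shares. Settings of distance, transcripts or neighbours change the number of genes, so there a count can move while its share stays, or the reverse. A count of genes cannot change direction. Only the score difference could, and it did so in 0 settings. A window of 2500 bp gave 830 genes open at both and a median upstream minus downstream score of 30.25. The stronger 50% of peaks gave 1040 genes open at neither and a difference of 14.5. Distances over 5 kb gave 1062 genes open at neither, and those over 20 kb 122 downstream only. Those over 50 kb, 1352 genes, gave 180 at both (13.3%), 701 upstream only (51.8%), 65 downstream only (4.81%) and 264 at neither (19.5%). Without incomplete transcripts 2309 genes remained in the rule, with 914 upstream only (39.6%), 20.1% at both and a difference of 14.75. Downstream only was then 190 genes, or 8.23%, against 192 genes, or 5.29%, in the main setting. Basic transcripts alone gave 735 upstream only, 400 at neither and 12.5. Support level 1 or 2 left 1523 genes, with 305 at both, 692 upstream only, 112 downstream only (7.35%), 266 at neither and 13.5. Leaving out incomplete and near TSSs together, chosen after seeing the data, left 1612 genes. Of these, 285 were open at both, 619 upstream only, 145 downstream only (8.995%) and 386 at neither, and the difference was 13. Single replicates (without replicate 1 or 2) gave 571 to 616 at both, 2021 to 2034 upstream only, 231 to 236 downstream only, 761 to 788 at neither and a difference of 25 to 31. The 12 of 20 T cell genes open at both were recounted after seeing the data. A window of 500 bp gave 7 of 20 (35%, against 10.2% of the whole set). Distances over 20 kb gave 7 of 12 (58.3% against 13.6%), and those over 50 kb 3 of 6 (50% against 13.3%). Without incomplete and near TSSs they were 7 of 14 (50% against 17.7%). The other settings gave 9 to 14 genes, of 12 to 20 members, or 55% to 75%. The cause of the moves in score difference was not tested. Hotspots give no peak score, so no difference was computed from them. No paired analysis was possible because there is 1 group. With unknown depth, a closed TSS means no peak was called.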

Other observations

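The X chromosome lies outside the rule and was counted the same way. Of its 126 protein-coding genes with outermost coding TSSs more than 10 kb apart, 10 (7.94%) were open at both TSSs, 36 (28.6%) upstream only, 13 (10.3%) downstream only and 57 (45.2%) at neither, and 10 differed between replicates. On the autosomes the shares were 13.9% at both, 52.2% upstream only, 5.29% downstream only and 19% at neither. The samples pool males and females, and the difference was not tested.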
